A study of Disanthus cercidifolius subsp. longipes with 9 samples.

Results

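Young leaves (stage F1) were compared with mature leaves (stage F3) of Disanthus cercidifolius var. longipes, a deciduous shrub of the witch hazel family, by RNA-seq, which reads fragments of the leaf's mRNA after copying to cDNA. The comparison used 6 of the 9 libraries of the series, 3 of F1 and 3 of F3, and every fold change is F3 over F1. The other 3 libraries come from near-mature leaves (F2) and entered only the shared estimate of the spread between libraries. By the study's staging, the F1 blade was open while its inner tissues were still developing, and at F3 this development was complete. The labels name no treatment for either stage. The sample labels date F1 to 20 July and F3 to 26 July, whereas the methods of the study place the young stage in April and the mature stage in June, so stage, calendar date and season cannot be told apart. Leaves came from 3 trees with several branches of each, but no source links a tree to a library, and a p-value therefore reflects only how far the libraries of a stage vary. In whole leaves, fewer cells of a type and less RNA per cell cannot be told apart.

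A leaf first grows by cell division and then by the loosening of cell walls, while its epidermis lays down a waxy cuticle and its veins form lignified xylem. A mature leaf has ended this growth, works as a source of sugar, makes starch by day and breaks it down at night, and repairs its photosystems under strong light. Genes for wall loosening, cuticle and vein formation are known from other plants as marks of expanding leaves, and genes for starch breakdown, photoprotection and chlorophyll breakdown as marks of older leaves.

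The deposited table holds 24385 transcript clusters, the units to which the authors assigned reads, each with raw fragment counts and FPKM, a level corrected for transcript length and for sequencing depth. It lists only clusters that the authors had called in at least 1 of their stage comparisons, so every count and percentage below is a share of a preselected table. Names come from matches to Swiss-Prot proteins of other species, which 14669 clusters have. The F1 libraries held 10353544 to 12253518 counts in the table and the F3 libraries 8657054 to 10311846. Libraries of one stage lay 50.8 to 64.2 apart in log2(FPKM + 1) distance over all clusters and those of F1 and F3 lay 256 to 263 apart, and no library stood apart from its stage. Within a stage, counts of any 2 libraries were further apart than sampling of reads gives (chi-square of 5.61 to 12 for each degree of freedom), so none was merged with another. The labelled tissue was checked against leaf markers: the small subunit of Rubisco, the enzyme that fixes carbon dioxide, summed to 34794 FPKM at F1 and 19137 FPKM at F3 over the clusters of its number (that of Cluster-28604.1).

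A cluster was called when edgeR's quasi-likelihood test gave a Benjamini-Hochberg adjusted p under 0.05 over all clusters and the fold change was 2 or more. By this rule 16990 of 24385 clusters (69.7%) were called, 8529 higher at F3 (35%) and 8461 lower (34.7%), and these 2 shares are the background for every group below. Over all clusters the log2 fold change had a median of 0.00. This median depends on the scaling between libraries, which was computed over the same clusters, so it does not measure a balance of change. By the library sizes that FPKM implies, the table held 50.1% to 50.4% of fragments in the F1 libraries and 41.7% to 42.3% in the F3 libraries. The changes were large: 4974 of the higher and 5459 of the lower clusters differed at least 4-fold, and 1181 and 1875 at least 64-fold. The libraries of F1 and F3 did not overlap in FPKM for 8326 of the higher and 8122 of the lower clusters. Over all 24385 clusters, called or not, they did not overlap for 19761 (81.0%), so a lack of overlap was common in this table. Of the clusters called higher, 952 had no count in any F1 library, and of those called lower, 1332 had none in any F3 library. Where a stage has no count, the fold is stated as at least the value reached with 3 counts in each library of that stage, which covers counting error only.

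**Figure D1:**
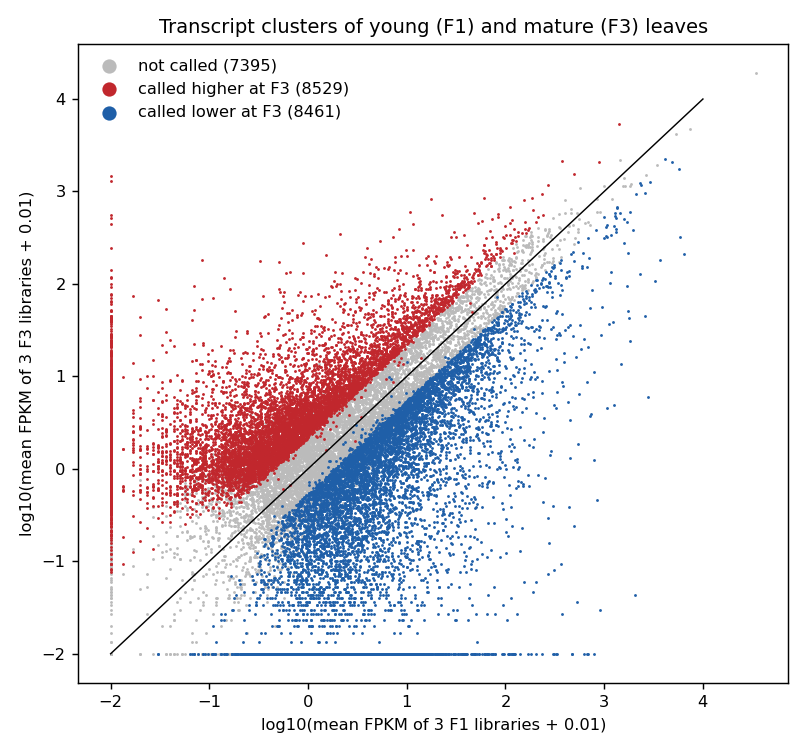
Mean FPKM of the 3 F1 libraries (horizontal) and of the 3 F3 libraries (vertical) of every cluster, both as log10(FPKM + 0.01), with the diagonal of equal levels. The 8529 clusters called higher at F3 are red, the 8461 called lower are blue, and clusters without a count in one stage lie along the left and lower edges.

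Several abundant clusters rose in mature leaves. Early light-induced protein 1 (Cluster-47813.2), a chlorophyll-binding protein made under strong light, had 1420, 1471 and 1335 FPKM in the F1 libraries and 5472, 5341 and 5347 FPKM in the F3 libraries. The stages did not overlap, and the log2 fold change was 1.82 ± 0.06 (SE, adjusted p = 1.1e-08). Thiamine thiazole synthase 2 (Cluster-48091.5), which makes the thiazole ring of vitamin B1, rose from 378 ± 13.9 to 2162 ± 69.9 FPKM (mean ± SD, n = 3 in each stage, as in all such pairs below). Phosphomethylpyrimidine synthase (Cluster-57385.6), which makes the other ring, rose from 40.2 ± 4.54 to 118 ± 2.60 FPKM. Both glycine-rich RNA-binding proteins GRP1A rose, Cluster-15371.1 from 892 ± 75.5 to 2073 ± 204 FPKM (log2 fold change 1.10, and just under the 2-fold threshold without F3 replicate 1) and Cluster-55569.1 from 267 ± 15 to 1178 ± 12.2 FPKM. A match to alcohol dehydrogenase 1 of Artemisia annua (Cluster-2374.12) rose from 155 ± 48.0 to 816 ± 73.8 FPKM, and the pathogenesis-related protein STH-2 (Cluster-28377.0) from 111 ± 5.42 to 678 ± 25.4 FPKM.

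**Figure D2:**
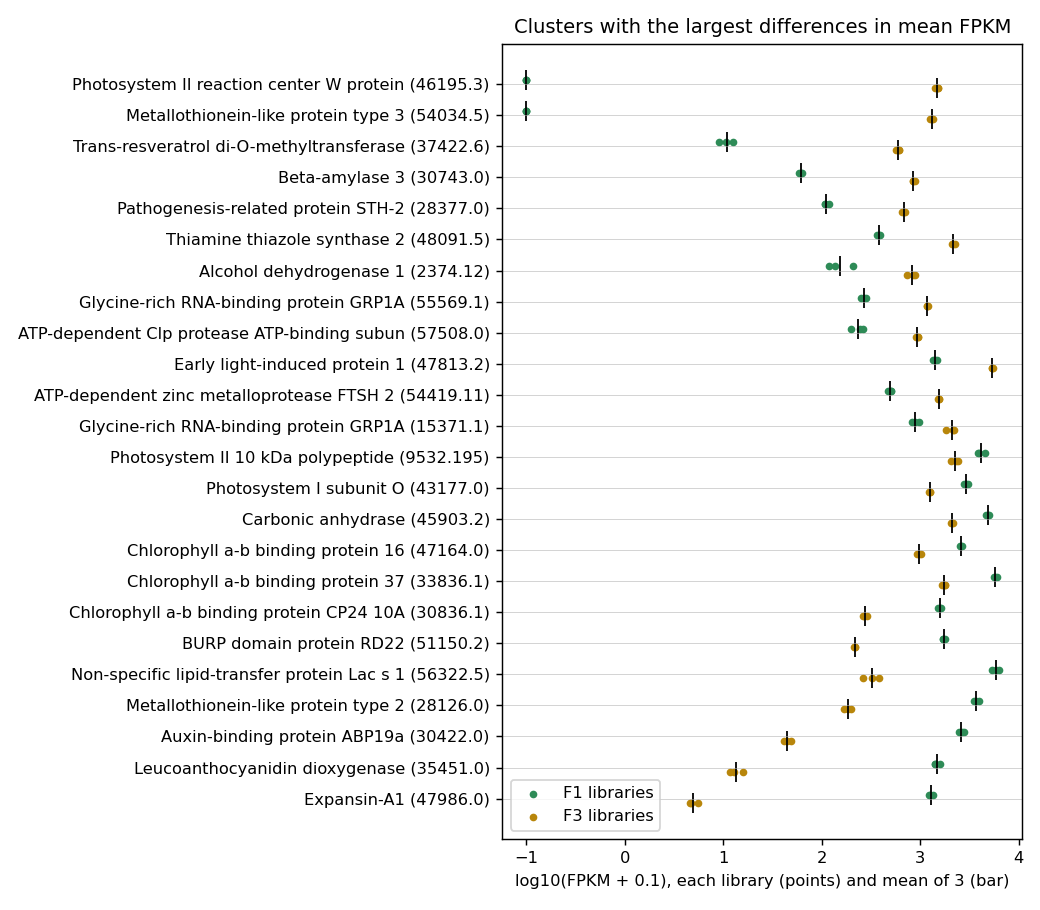
FPKM of each F1 library (green) and each F3 library (ochre) as log10(FPKM + 0.1) for the 12 clusters called higher and the 12 called lower with the largest differences in mean FPKM, with the cluster number in brackets and a bar at the mean of 3. Points of the 2 stages are apart in every row, from expansin-A1 (1271 to 4.87 FPKM) at the bottom to 2 clusters with no F1 count at the top.

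Most wall-loosening clusters were lower at F3. Expansin-A1 (Cluster-47986.0), of the proteins that let cell walls yield during growth, had 1243, 1331 and 1237 FPKM at F1 and 5.48, 4.6 and 4.54 FPKM at F3. Every F3 library was far below every F1 library, with a log2 fold change of -8.15 ± 0.08 (adjusted p = 6.9e-11). Expansin-A8 (Cluster-46520.0) fell from 548 ± 6.91 to 1.85 ± 0.183 FPKM. Xyloglucan endotransglucosylase/hydrolase 6 (Cluster-37828.0), which cuts and rejoins wall xyloglucan, fell from 791 ± 17.2 to 11.2 ± 0.618 FPKM. Among all 31 clusters of expansins and xyloglucan endotransglucosylases, 22 (71.0%) were lower and 3 higher, with a median log2 fold change of -3.26, and their summed level went from 3352 ± 61.7 to 523.6 ± 0.410 FPKM. The 3 that rose stayed low, for example expansin-A15 (Cluster-47642.0) at 2.17 ± 0.386 and 7.43 ± 0.661 FPKM.

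Other lists of wall genes were also mostly lower. Of 71 clusters of pectin-modifying enzymes, 56 (78.9%) were lower and 5 higher, with a median of -4 and a summed level of 1547 ± 11.1 FPKM at F1 and 98.2 ± 2.98 FPKM at F3. Pectin acetylesterase 8 (Cluster-43860.0), which strips acetyl groups from pectin, fell from 245 ± 10.8 to 3.53 ± 0.560 FPKM, and pectinesterase 1 (Cluster-29510.0), which removes methyl groups, from 150 ± 7.08 to 0.640 ± 0.115 FPKM. Pectinesterase 2 (Cluster-3030.0) went the other way, with no count at F1 and 3.78, 2.96 and 3.83 FPKM at F3, at least 42.6-fold higher. Of 18 arabinogalactan proteins, sugar-rich proteins of the wall and cell surface, 17 (94.4%) were lower and 1 higher, and classical arabinogalactan protein 26 (Cluster-30448.0) fell from 108 ± 5.44 to 0.667 ± 0.143 FPKM. Of 11 cellulose synthase clusters 8 were lower and none higher. The drop was small for catalytic subunit 3 (Cluster-34231.2), which in Arabidopsis builds primary walls, at 41.3 ± 1.87 and 19.3 ± 0.691 FPKM, and large for subunit 4 (Cluster-38441.0), which builds secondary walls of xylem, at 8.54 ± 2.09 and 0.187 ± 0.0814 FPKM.

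Most clusters in the lists of cell division genes and core histones were lower. Cyclin-D3-3 (Cluster-19065.0), a driver of division in young Arabidopsis leaves, had 19.1, 18.7 and 18.1 FPKM at F1 and 0.260, 0.330 and 0.170 FPKM at F3, a log2 fold change of -6.28 ± 0.24 (adjusted p = 3e-08). In the list of cell division and DNA replication, 64 of 90 clusters (71.1%) were lower and 8 higher, with a median of -1.92. The KEGG pathway of DNA replication was closer to the background, with 27 of 82 clusters (32.9%) lower, 21 (25.6%) higher and a median of -0.13. None of the 23 core histone clusters, which package newly copied DNA, was higher and 17 (73.9%) were lower, with summed levels of 1258 ± 105 and 435.1 ± 14.7 FPKM. Transcription factor E2FB (Cluster-47688.0), a cell-cycle regulator, was among the 8 that rose, from 9.31 ± 0.639 to 24.1 ± 0.580 FPKM. Histone H4 (Cluster-40131.0) had 60.8 ± 1.14 FPKM at F3 against 155 ± 13.8 at F1. The log2 fold change of histone H4 (Cluster-40131.0) was -1.47 ± 0.10, a smaller size than that of cyclin-D3-3.

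Most clusters of cuticle and epidermis genes were lower at F3. Non-specific lipid-transfer protein 2 (Cluster-50246.0), of a family that carries lipids in the cell wall, had 919, 981 and 840 FPKM at F1 and 0, 0.0600 and 0 FPKM at F3, that is 46284 counts against 1. The lipid-transfer protein Lac s 1 (Cluster-56322.5) fell from 5822 ± 486 to 324 ± 58.6 FPKM (log2 fold change -4.20 ± 0.21). Of 28 lipid-transfer clusters 22 (78.6%) were lower and 5 higher, and the family's summed level went from 12499 ± 787 FPKM, with every F1 library above every F3 library, to 804.1 ± 61.4 FPKM. Lipid transfer protein EARLI 1 (Cluster-23501.0) was 1 of the 5 that rose, from 3.99 ± 0.872 to 49.1 ± 5.15 FPKM.

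Wax synthesis genes were mostly lower. The 3-ketoacyl-CoA synthases lengthen fatty acids for wax and other lipids, and 17 of their 20 clusters (85.0%) were lower and 3 higher, with a median of -6.65. Synthase 6 (Cluster-40181.2), the enzyme of wax chains in Arabidopsis, had 439, 423 and 444 FPKM at F1 and 0.280, 0.430 and 0.420 FPKM at F3. Synthase 11 (Cluster-41988.0) rose instead, from 3.33 ± 0.323 to 52.9 ± 1.14 FPKM (log2 fold change 3.88 ± 0.09). The 3 clusters of its number, 2 called higher and 1 lower, rose less in sum, from 15.6 to 56.6 FPKM (log2 fold change 1.49). CER1 (Cluster-48206.4), which forms wax alkanes, fell from 273 ± 3.64 to 0.147 ± 0.168 FPKM. Alkane hydroxylase MAH1 (Cluster-33610.11), which turns these alkanes into alcohols and ketones, fell from 190 ± 4.30 to 1.73 ± 0.167 FPKM. In the KEGG pathway of cutin, suberine and wax, 68 of 88 clusters (77.3%) were lower and 11 higher, and 28 had no count at F3, with a median of -6.85 and sums of 2522 ± 32.5 and 297.1 ± 10.4 FPKM. The fatty acid elongation pathway had 39 of 52 clusters (75.0%) lower and 7 higher.

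GDSL esterases, a large family that includes the enzymes that polymerise cutin, had 55 of 67 clusters (82.1%) lower and 5 higher. Summed over cluster numbers and taking numbers with a Swiss-Prot match and at least 50 FPKM in a stage, 5 of the 8 with the largest falls were GDSL esterases. At1g29670 (Cluster-34641) had 62.2, 62.3 and 60.5 FPKM at F1 and no count in any F3 library, at least 814-fold lower. At5g33370 was found under Cluster-32350, at least 741-fold lower, and under Cluster-57127, at least 501-fold lower. APG (Cluster-39251) had 16584 counts at F1 and 2 at F3. The basic blue protein (Cluster-35869), a small copper protein, fell from 118 ± 10.6 FPKM to no count, at least 502-fold lower, and cytochrome P450 81Q32 (Cluster-30306) from 53.3 ± 10.5 FPKM to no count, at least 622-fold lower.

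Markers of single leaf cell types were counted next. Of 14 trichome and epidermis markers 13 (92.9%) were lower and 1 higher, with summed levels of 639.3 ± 6.31 and 23.5 ± 3.59 FPKM. The list includes wax genes, so its sum is not separate from the wax results above. Protodermal factor 1 (Cluster-37066.0), which marks the outer cell layer, fell from 39.0 ± 3.64 to 0.177 ± 0.0814 FPKM, and ECERIFERUM 2 (Cluster-37602.0), needed for long wax chains, from 251 ± 10.2 to 0.783 ± 0.325 FPKM. The exception was GLABRA2 expression modulator (Cluster-49548.1), with no count at F1 and 12.9 ± 2.77 FPKM at F3, at least 138-fold higher. Of 8 guard cell markers 7 were lower and 1 higher, with sums of 62.3 ± 2.85 and 8.94 ± 0.256 FPKM. FAMA (Cluster-43263.0), the regulator that ends stomatal cell division, fell from 9.97 ± 0.737 to 0.173 ± 0.146 FPKM. MYB60 (Cluster-27887.0), which mature guard cells also express in Arabidopsis, fell less, from 15.5 ± 1.13 to 3.51 ± 0.798 FPKM. The list also counts epidermal patterning factor-like protein 9 (Cluster-34476.0), a signal for stomata that the mesophyll makes. This cluster had 1305 counts at F1 and 2 at F3, or 26.0 and 0.0433 FPKM, so the sum of the list is not of guard cells alone.

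Xylem genes fell too. All 14 xylem markers were lower, with a median of -9.12 and sums of 94.1 ± 8.32 and 1.22 ± 0.386 FPKM, and 6 of them had no count at F3. Laccase-17 (Cluster-52010.0), which polymerises lignin, had 14.9, 14.1 and 13.9 FPKM at F1 and no count at F3, at least 46.8-fold lower. Of all 19 laccase clusters, not only those among the xylem markers, 17 (89.5%) were lower. Laccase-15 (Cluster-35235.0), the highest of the family and not a xylem marker here, fell from 124 ± 5.39 to 5.87 ± 0.901 FPKM. Laccase-3 (Cluster-31887.0) was 1 of the 2 that rose, from 2.56 ± 0.238 to 11.2 ± 1.60 FPKM. Xylem cysteine protease XCP1 (Cluster-54605.0), which clears the contents of dying xylem cells, is not counted among the 14 xylem markers. It fell less than their median, from 41.9 ± 3.82 to 7.08 ± 0.490 FPKM (log2 fold change -2.62 ± 0.10). Phloem markers were mixed by cluster, with 8 of 14 lower and 4 higher and sums of 121.3 ± 8.40 and 57.3 ± 3.52 FPKM. Summed by number, 7 of 9 were lower and 1 higher. Of 30 class III peroxidases 17 (56.7%) were lower and 9 higher, among them peroxidase 42 (Cluster-35930.0) at 205 ± 7.41 and 32.8 ± 3.33 FPKM and peroxidase 12 (Cluster-56454.0) at 13.6 ± 1.54 and 107 ± 6.31 FPKM.

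The other cell type lists were small. Meristem markers had 4 of 9 clusters higher and 5 lower, with sums of 26.2 ± 1.57 and 45.6 ± 0.450 FPKM, and flower markers 3 of 7 higher and 2 lower, with sums of 28.9 ± 1.25 and 27.1 ± 3.54 FPKM. Plastid-encoded photosynthesis genes summed to 14.9 ± 1.10 and 26.9 ± 4.41 FPKM, with 2 of 8 clusters higher (25.0%) and 1 lower. Without F1 replicate 2 the higher share was 12.5%, and without F3 replicate 3 it was 0.0%. Mesophyll markers outweighed all of these in both stages, at 73312 ± 1927 and 35541 ± 969 FPKM, with 35 of 54 clusters (64.8%) lower and 1 higher. The epidermal, guard cell, xylem, phloem and mesophyll sums were all lower at F3, as were many growth, cuticle and photosynthesis genes, and the part of changed cell type shares in those results was not tested.

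**Figure D3:**
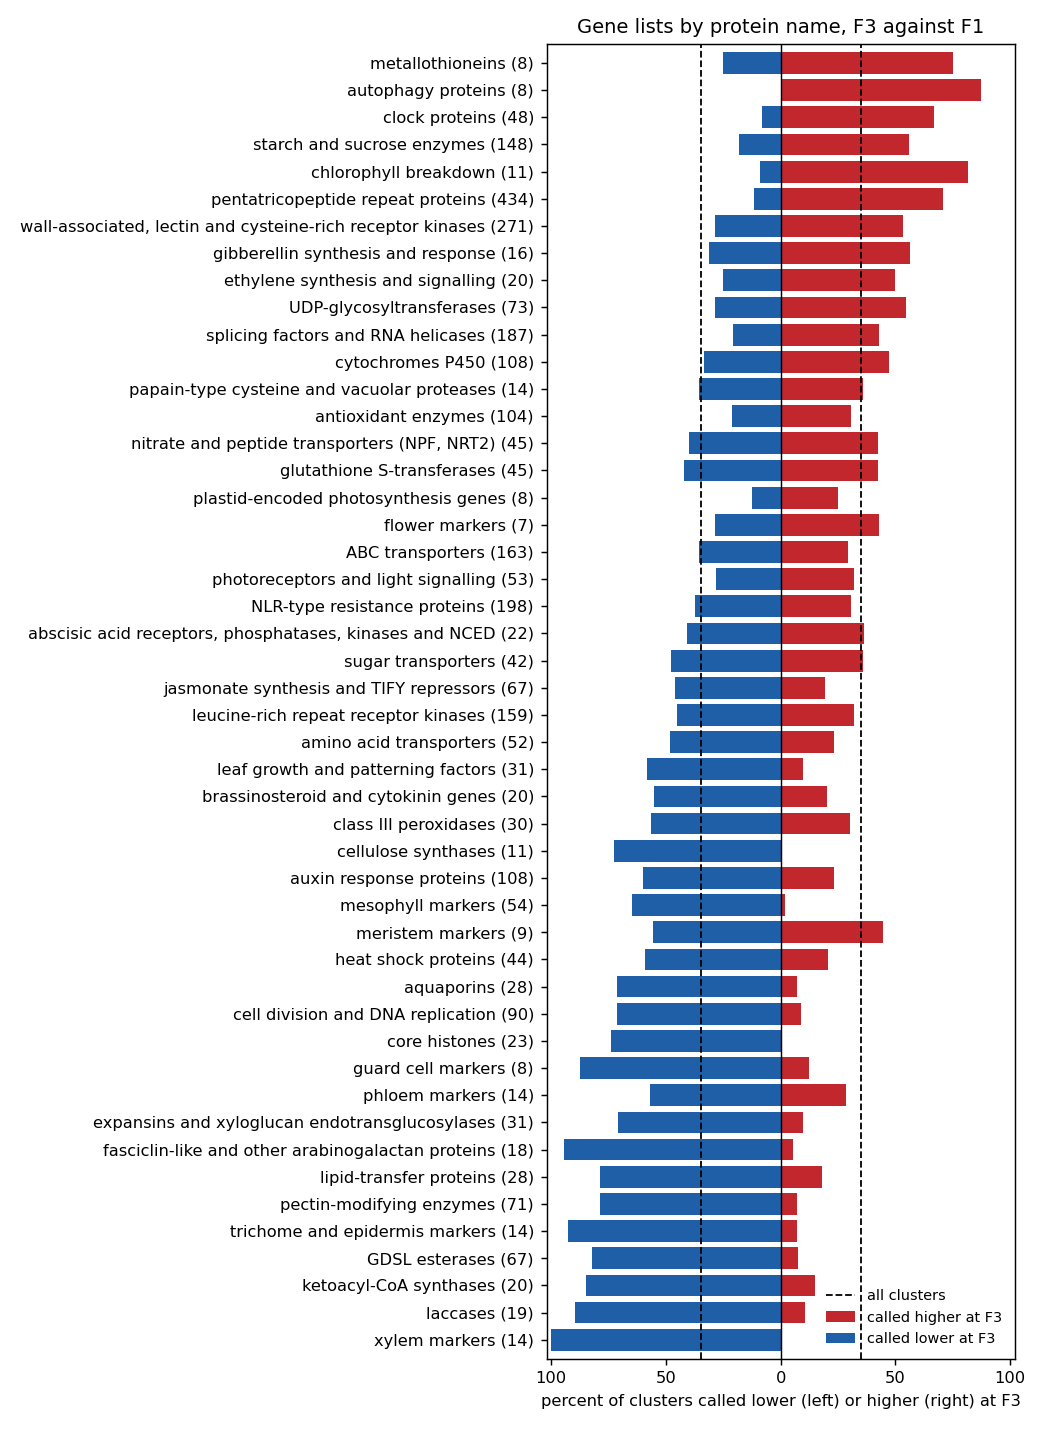
Percent of the clusters of each of 48 protein name lists called lower (blue, to the left) or higher (red, to the right) at F3, ordered by the median log2 fold change, with the number of clusters in brackets. Dashed lines mark the shares over all clusters (34.7% lower, 35% higher), and wall, cuticle and vein lists fill the lower end.

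Water channel clusters were mostly lower. Of 28 aquaporins 20 (71.4%) were lower and 2 higher, and their sum went from 3008 ± 144 to 695.4 ± 38.0 FPKM. Aquaporin PIP2-7 (Cluster-52017.0), a water channel of the plasma membrane, had 488, 493 and 479 FPKM at F1 and 25.3, 29.8 and 27.9 FPKM at F3 (log2 fold change -4.25 ± 0.08, adjusted p = 7.6e-10). Aquaporin PIP2-2 (Cluster-34740.0) rose from 7.36 ± 0.720 to 26.6 ± 1.93 FPKM. The auxin-binding protein ABP19a (Cluster-30422.0), a germin-like protein of the cell wall, fell from 2615 ± 169 to 44.7 ± 4.05 FPKM.

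Of 108 auxin response clusters 65 (60.2%) were lower and 25 higher, with a median of -1.72. IAA14 (Cluster-42586.0), a repressor of auxin responses, had 350, 378 and 340 FPKM at F1 and 28.5, 27.1 and 27.9 FPKM at F3. The stages did not overlap, with a log2 fold change of -3.80 ± 0.07 (adjusted p = 5.7e-10). The auxin-induced protein 10A5 (Cluster-35187.20) fell from 215 ± 14.6 to 0.857 ± 0.315 FPKM. SAUR36 (Cluster-22734.0) and auxin response factor 2A (Cluster-47355.2), whose Arabidopsis counterparts promote leaf ageing, went up, from 25.2 ± 0.925 to 121 ± 5.59 FPKM and from 35.0 ± 3.17 to 103 ± 3.97 FPKM.

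Light-harvesting clusters were mostly lower in mature leaves. Chlorophyll a-b binding protein 37 (Cluster-33836.1), which binds the pigments of the photosystem II antenna, had 5747, 5950 and 5557 FPKM at F1 and 1790, 1773 and 1647 FPKM at F3 (log2 fold change -1.84 ± 0.06, adjusted p = 1.4e-08). CP24 (Cluster-30836.1), a minor antenna protein, fell from 1577 ± 60.6 to 274 ± 11.4 FPKM. In the KEGG antenna pathway 29 of 42 clusters (69.0%) were lower and none higher, and the sum went from 38178 ± 1519 to 16196 ± 561 FPKM. In the photosynthesis pathway 30 of 63 (47.6%) were lower and 11 higher, and photosystem I subunit O (Cluster-43177.0) fell from 2903 ± 136 to 1251 ± 10.1 FPKM. Carbonic anhydrase (Cluster-45903.2), which feeds carbon dioxide to Rubisco, fell from 4847 ± 149 to 2092 ± 57.1 FPKM. Carbon fixation had 34 of 85 clusters (40.0%) lower and 19 higher, closer to the background.

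Some chloroplast protease subunits rose. FtsH protease 2 (Cluster-54419.11), which removes damaged photosystem II proteins, had 499, 473 and 510 FPKM at F1 and 1562, 1525 and 1551 FPKM at F3, without overlap (log2 fold change 1.53 ± 0.03, adjusted p = 7.7e-10). The Clp protease subunit CD4B (Cluster-57508.0), a chaperone of the stroma, rose from 235 ± 35.1 to 933 ± 26.6 FPKM, while 1 of the 5 clusters of its number was called lower. The KEGG pathway of porphyrin metabolism, which holds both the making and the breakdown of chlorophyll, had 21 of 48 clusters (43.8%) lower and 13 higher. Among those that fell were magnesium-protoporphyrin IX monomethyl ester cyclase (Cluster-46853.0) at 439 ± 16.9 and 138 ± 3.42 FPKM and geranylgeranyl diphosphate reductase (Cluster-30538.0), which makes the chlorophyll tail, at 499 ± 62.9 and 176 ± 3.65 FPKM.

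Chlorophyll breakdown clusters were mostly higher. Of 11 clusters 9 (81.8%) were higher and 1 lower, and their sum rose from 172.3 ± 1.75 to 632.6 ± 15.9 FPKM. STAY-GREEN (Cluster-40373.0), which starts the breakdown by removing magnesium, had 7.79, 8.58 and 8.31 FPKM at F1 and 67.8, 72.6 and 65.2 FPKM at F3 (log2 fold change 2.94 ± 0.11, adjusted p = 3e-08). Pheophytinase (Cluster-50981.0), the next enzyme, rose from 28.2 ± 0.739 to 187 ± 3.85 FPKM, and pheophorbide a oxygenase (Cluster-36604.1), which opens the ring, from 33.1 ± 1.96 to 93.9 ± 4.04 FPKM. The single member that fell was chlorophyllase-1 (Cluster-24421.0), which in Arabidopsis is not needed for breakdown during senescence, with 4.26 ± 0.359 FPKM at F1 and no count at F3, at least 37.5-fold lower. The senescence-specific cysteine protease SAG39 (Cluster-49981.1) rose from 8.09 ± 2.07 to 131 ± 9.29 FPKM. Papain-type and vacuolar proteases as a list had 5 of 14 clusters higher and 5 lower. All but 1 of the 8 autophagy clusters were higher, but they belong to only 2 cluster numbers, and the wider KEGG autophagy pathway had 11 of 32 clusters (34.4%) higher, near the background, and 4 lower.

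Several enzymes of starch breakdown rose. Beta-amylase 3 (Cluster-30743.0), which releases maltose from leaf starch, had 61.8, 62.6 and 59.3 FPKM at F1 and 875, 840 and 841 FPKM at F3 (log2 fold change 3.70 ± 0.06, adjusted p = 3e-10). Alpha-amylase 3 (Cluster-30298.0), which cuts inside the starch chain, rose from 9.98 ± 1.47 to 201 ± 6.56 FPKM. The H isozyme of alpha-glucan phosphorylase (Cluster-29024.0), which uses the glucans made from maltose in the cytosol, rose from 19.9 ± 0.480 to 198 ± 6.75 FPKM. Of 148 starch and sucrose clusters 83 (56.1%) were higher and 27 lower, with a median of 1.73. The wider KEGG pathway of starch and sucrose metabolism, which also holds cell wall enzymes, leaned the other way, with 100 of 330 clusters (30.3%) higher and 149 (45.2%) lower, a median of -0.93 and sums of 4553 ± 46.2 and 3976 ± 39.6 FPKM. Granule-bound starch synthase 1 (Cluster-353.30), which makes amylose, fell from 311 ± 3.57 to 0.0700 ± 0.121 FPKM as a single cluster, while the 13 clusters of its number summed to 1364 and 820.1 FPKM.

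The summed level of most flavonoid steps was lower at F3, by sizes that differed widely. Leucoanthocyanidin dioxygenase (Cluster-35451.0), the anthocyanidin synthase, had 1404, 1592 and 1422 FPKM at F1 and 11.6, 12.9 and 15.95 FPKM at F3 (log2 fold change -6.90 ± 0.14, adjusted p = 7.7e-10). Summed over its KEGG ortholog the step went from 1473 ± 104 to 15.8 FPKM. Anthocyanidin reductase, which makes epicatechin from anthocyanidins, summed to 328.3 FPKM at F1 and 15.6 FPKM at F3, and chalcone synthase, the first step, to 1664 and 590.8 FPKM. Leucoanthocyanidin reductase, which makes catechin, moved against these, from 27.2 to 121.1 FPKM, with both of its clusters higher. Dihydroflavonol 4-reductase, the step before anthocyanidin synthase, summed to 184.5 and 107.3 FPKM, with 2 clusters higher and 2 lower. Chalcone isomerase had 11 of 17 clusters higher and 4 lower while its sum went from 439.5 to 339.3 FPKM, and phenylalanine ammonia-lyase had 6 of 10 higher and 2 lower with sums of 127 and 85.0 FPKM. Flavonol synthase overlapped between the stages, at 107.5 and 107.3 FPKM. In the pathway as a whole 51 of 99 clusters (51.5%) were lower and 31 higher, and the sum fell from 8013 ± 74.7 to 2762 ± 7.87 FPKM.

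**Figure D4:**
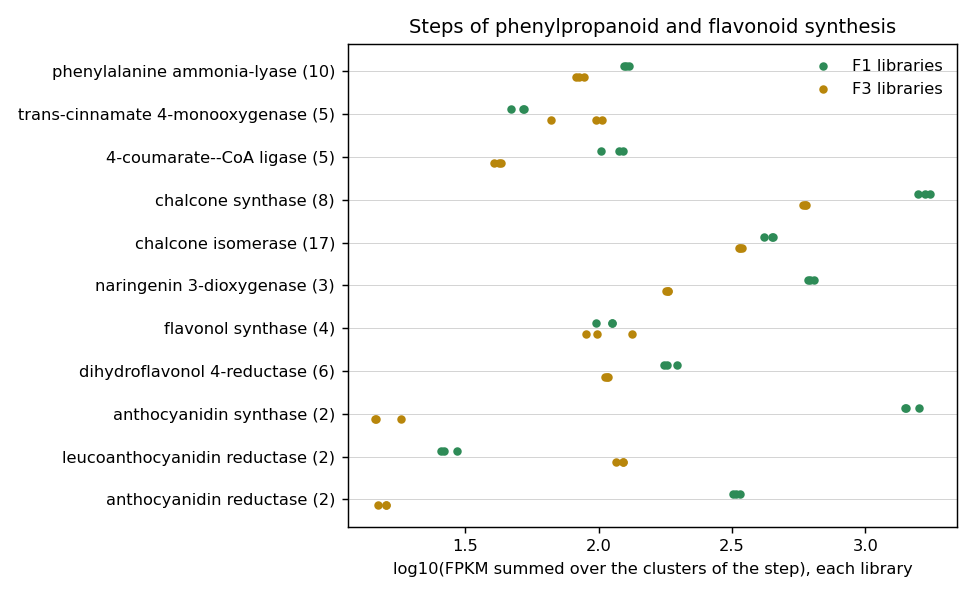
FPKM summed over the clusters of each KEGG ortholog (number of clusters in brackets), as log10, for each F1 library (green) and each F3 library (ochre). Anthocyanidin synthase (1473 to 15.8 FPKM) and anthocyanidin reductase (328.3 to 15.6) are far lower at F3, leucoanthocyanidin reductase (27.2 to 121.1) is higher, and flavonol synthase overlaps.

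Trans-cinnamate 4-monooxygenase, the second step of the phenylpropanoid pathway, had a single count over the F1 libraries under Cluster-42964 and 99.5, 62.3 and 93.9 FPKM at F3, while its ortholog as a whole summed to 50.6 and 89.4 FPKM. A pair of methyltransferase clusters rose. The trans-resveratrol di-O-methyltransferase match (Cluster-37422.6) had 10.7, 12.6 and 8.99 FPKM at F1 and 571, 606 and 602 FPKM at F3 (log2 fold change 5.67 ± 0.14). Caffeic acid 3-O-methyltransferase (Cluster-22823.7) rose from 7.23 ± 1.34 to 326 ± 19.7 FPKM. Cytochrome P450 93B2 (Cluster-26969.1), a flavone synthase in Gerbera, fell from 400 ± 14.4 to 31.7 ± 1.68 FPKM. Over all cytochromes P450 the calls went both ways, with 51 of 108 higher (47.2%) and 36 lower. Summed by number, 20 of 64 were higher and 25 lower, and the family's sum fell from 2642 ± 80.5 to 2008 ± 28.4 FPKM.

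Some genes of volatile and jasmonate synthesis were lower. The match to trimethyl-tridecatetraene synthase, a cytochrome P450 that makes a leaf volatile, had 526, 509 and 552 FPKM at F1 under Cluster-38253.2 and 0.03, 0 and 0.05 FPKM at F3. Of the 6 clusters of its number 5 were called lower and 1 higher. Clusters of this enzyme are filed in the KEGG entry of brassinosteroid biosynthesis, in which 12 of 20 clusters were lower and 5 higher. Of 67 clusters of jasmonate synthesis and TIFY repressors 31 (46.3%) were lower and 13 higher, and their sum fell from 2292 ± 38.8 to 1168 ± 3.73 FPKM. TIFY 6B (Cluster-44687.1), a repressor of jasmonate responses, fell from 143 ± 0.704 to 47.4 ± 2.98 FPKM, and MYC2 (Cluster-22290.0), the activator that such repressors hold, rose from 27.4 ± 2.04 to 97.3 ± 2.12 FPKM.

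Among the other hormones, several ethylene genes rose. EIN3-binding F-box protein 1 (Cluster-40794.0), which marks the activator EIN3 for destruction, had 25.5, 24.6 and 26.8 FPKM at F1 and 170, 173 and 178 FPKM at F3 (log2 fold change 2.64 ± 0.05). EIN3 itself (Cluster-34557.0) rose from 62.8 ± 5.05 to 195 ± 1.39 FPKM. Of 20 ethylene clusters 10 (50%) were higher and 5 lower, and their sum rose from 237.1 ± 3.84 to 673.6 ± 2.86 FPKM. The abscisic acid list was split, with 8 of 22 higher and 9 lower, but the receptor PYL4 (Cluster-25454.0) rose from 11.5 ± 1.32 to 121 ± 1.23 FPKM. Of 16 gibberellin clusters 9 were higher and 5 lower. The receptor GID1B (Cluster-43322.0) rose from 13.9 ± 1.08 to 85.5 ± 3.20 FPKM, and gibberellin-regulated protein 6 (Cluster-38024.0) went from 38.3 ± 4.85 FPKM to no count, at least 114-fold lower. The 2 clusters that share the number of Cluster-38024.0 summed to 44.3 FPKM at F1 and still 3.23 FPKM at F3 (log2 fold change -4.04). Brassinosteroid and cytokinin genes had 11 of 20 lower and 4 higher, with LOG5 (Cluster-46556.0), which activates cytokinins, rising from 7.11 ± 0.943 to 54.9 ± 1.96 FPKM.

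Clock genes differed strongly. Adagio protein 3 (Cluster-24888.1), a blue-light receptor of the evening clock, had 0.280, 0.680 and 0.540 FPKM at F1 and 175, 169 and 170 FPKM at F3, without overlap (log2 fold change 8.26 ± 0.22, adjusted p = 3.9e-09). The pseudo-response regulator APRR5 (Cluster-43012.5), which represses morning genes, rose from 4.17 ± 1.10 to 165 ± 3.04 FPKM. LATE ELONGATED HYPOCOTYL (Cluster-25707.3), a morning regulator, was lower, at 364 ± 15.1 and 181 ± 1.76 FPKM. Of 48 clock clusters 32 (66.7%) were higher and 4 lower, with a median of 2.49 and sums of 210.8 ± 6.24 and 826.4 ± 3.06 FPKM. The wider KEGG circadian pathway had 57 of 109 (52.3%) higher and 24 lower, with sums of 2983 ± 116 and 2331 ± 11.8 FPKM. The methods give the morning as the sampling time of each stage without an hour, so the hour of harvest cannot be told apart from the stage. Photoreceptors and light signalling were near the background, with 17 of 53 higher (32.1%) and 15 lower.

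Transcription factor families separated by direction. Over all 1161 clusters with a family entry, 367 (31.6%) were higher and 443 (38.2%) lower, with a median of -0.27. WRKY factors, regulators of defence and senescence, had 32 of 39 clusters (82.1%) higher and 4 lower, and their sum rose from 122.8 ± 1.18 to 639.8 ± 12.2 FPKM. WRKY24 (Cluster-47127.6) had 7.76, 6.88 and 9.19 FPKM at F1 and 115, 108 and 111 FPKM at F3 (log2 fold change 3.70 ± 0.09, adjusted p = 1.8e-09). WRKY 47 (Cluster-35271.0) rose from 4.10 ± 0.281 to 97.9 ± 4.05 FPKM.

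NAC and ERF families had more clusters higher than lower. NAC factors, a family with many senescence regulators, had 19 of 34 clusters (55.9%) higher and 7 lower, and NAC21/22 (Cluster-6661.1) had 4.31, 4.18 and 2.69 FPKM at F1 and 201, 189 and 193 FPKM at F3. The ERF branch of AP2/ERF factors had 28 of 53 (52.8%) higher and 11 lower. ERF034 (Cluster-49576.0) rose from 2.08 ± 0.751 to 348 ± 4.40 FPKM and ERF106 (Cluster-41054.0) from 5.33 ± 0.607 to 294 ± 3.20 FPKM, whereas ERF023 (Cluster-47189.0) fell from 23.3 ± 1.84 to 0.250 ± 0.157 FPKM. Heat stress factors had 10 of 17 (58.8%) higher and 4 lower, with A-3 (Cluster-43572.0) rising from 0.623 ± 0.119 to 38.8 ± 2.38 FPKM. Heat shock proteins, which such factors induce under heat, went down in 26 of 44 clusters (59.1%) and up in 9, for example a small class I protein (Cluster-57062.2) from 196 ± 9.26 to 60.1 ± 1.80 FPKM.

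**Figure D5:**
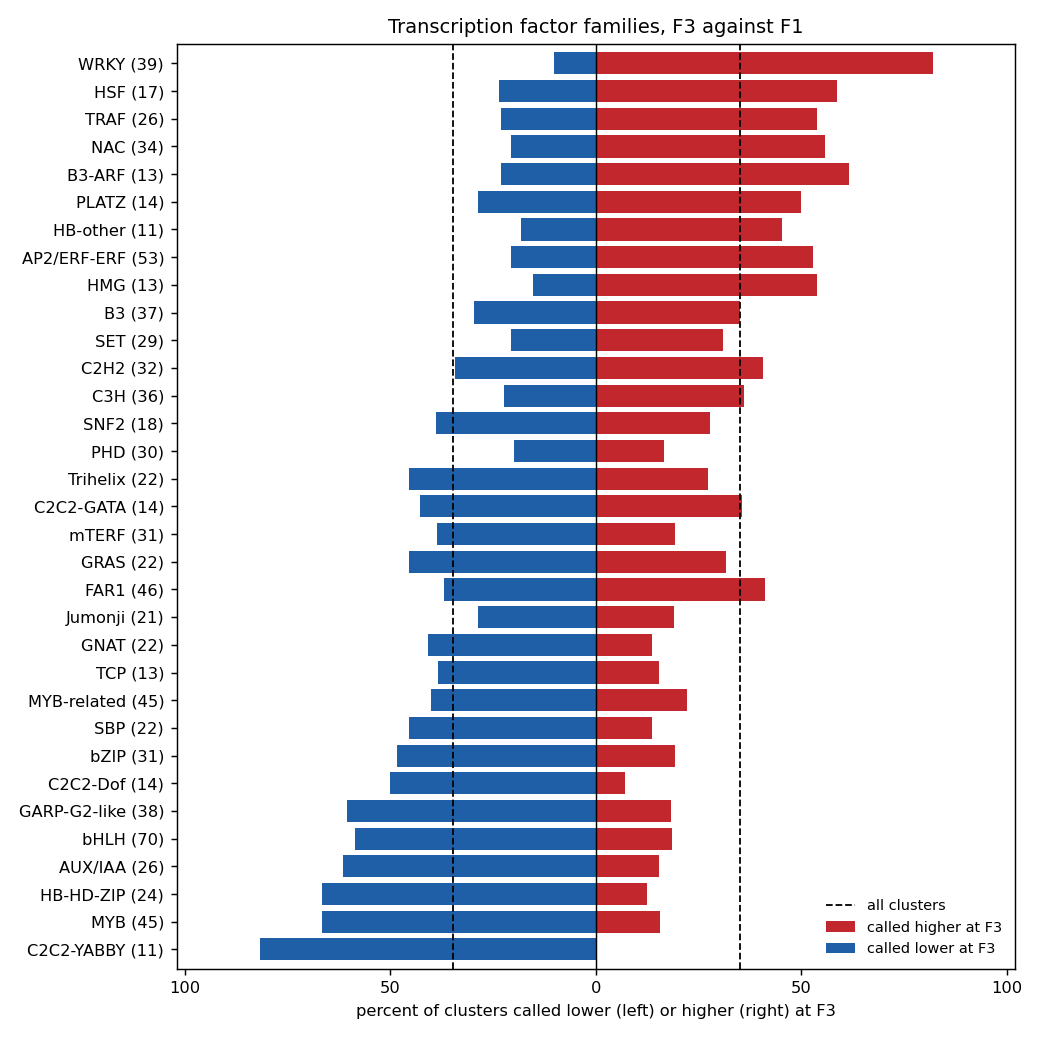
Percent of the clusters of each transcription factor family with at least 10 clusters called lower (blue, to the left) or higher (red, to the right) at F3, ordered by the median log2 fold change, with the number of clusters in brackets. Dashed lines mark the shares over all clusters (34.7% and 35%), with WRKY (82.1% higher) at the top and YABBY (81.8% lower) at the bottom.

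Several families had more clusters lower than higher. YABBY factors, which set the underside of the leaf and drive blade growth, had 9 of 11 clusters (81.8%) lower and none higher, and YABBY 2 (Cluster-33434.15) had 100, 105 and 99.2 FPKM at F1 and 10.9, 12.7 and 12.9 FPKM at F3. MYB factors had 30 of 45 (66.7%) lower and 7 higher, HD-ZIP factors 16 of 24 (66.7%) lower and 3 higher, and bHLH factors 41 of 70 (58.6%) lower and 13 higher. The bHLH factor ORG2 (Cluster-21759.1), a regulator of iron uptake, fell from 61.6 ± 3.61 to 3.31 ± 0.631 FPKM. AUX/IAA entries had 16 of 26 (61.5%) lower and 4 higher, GARP-G2-like factors 23 of 38 (60.5%) lower and 7 higher, and SBP factors 10 of 22 (45.5%) lower and 3 higher. Leaf growth and patterning factors as a list had 18 of 31 (58.1%) lower and 3 higher. TCP2 (Cluster-51568.10), which restrains cell division in Arabidopsis leaves, was among the 3 and rose from 50.1 ± 4.53 to 137 ± 3.40 FPKM.

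Receptor kinase classes differed in their counts. Wall-associated, lectin and cysteine-rich kinases, which sense wall fragments and microbes, had 144 of 271 clusters (53.1%) higher and 78 lower, and their sum rose from 1192 ± 23.2 to 3148 ± 36.0 FPKM. Wall-associated receptor kinase-like 2 (Cluster-11417.6) had 46.4, 51.5 and 46.7 FPKM at F1 and 584, 581 and 602 FPKM at F3 (log2 fold change 3.32 ± 0.09, adjusted p = 5.1e-09). The 19 clusters of its number summed to 101.9 and 1519 FPKM. Leucine-rich repeat kinases had 72 of 159 (45.3%) lower and 51 (32.1%) higher, with sums of 713.9 ± 48.4 and 828.7 ± 27.8 FPKM. NLR-type resistance proteins were near the background, with 74 of 198 (37.4%) lower and 61 (30.8%) higher. EFR (Cluster-3082.5), in Arabidopsis the receptor of a bacterial elongation factor, rose from 10.9 ± 1.24 to 63.7 ± 2.06 FPKM, and BAM1 (Cluster-33986.0), a receptor of meristem peptides, fell from 40.4 ± 7.49 to 7.18 ± 0.959 FPKM.

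RNA-processing genes were more often called higher than lower. Of 434 pentatricopeptide repeat clusters, whose proteins bind and edit organelle RNA, 307 (70.7%) were higher and 51 lower, with a median of 1.5. Their sum rose from 877.3 ± 35.0 to 1781 ± 36.7 FPKM. The match to At3g09650 (Cluster-37181.0), which in Arabidopsis processes chloroplast RNA, had 40.2, 33.0 and 42.7 FPKM at F1 and 161, 149 and 158 FPKM at F3. Splicing factors and RNA helicases had 80 of 187 (42.8%) higher and 39 lower, led by the chloroplast helicase 3 (Cluster-35252.2) at 116 ± 13.6 and 301 ± 6.16 FPKM. The spliceosome pathway had 120 of 309 (38.8%) higher and 72 lower, and mRNA surveillance 84 of 167 (50.3%) higher and 28 lower. Oxidative phosphorylation had 65 of 143 (45.5%) higher and 32 lower while its summed level fell from 3543 ± 145 to 2674 ± 47.2 FPKM. The ribosome had 53 of 239 (22.2%) higher and 49 lower, both below the shares over all clusters.

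Transporter lists were less one-sided. Nitrate and peptide transporters had 19 of 45 higher (42.2%) and 18 lower, with summed levels of 458.4 ± 7.05 and 911.6 ± 4.92 FPKM. The high-affinity nitrate transporter 3.1 match (Cluster-57179.1) had 0.320, 0.430 and 4.09 FPKM at F1 and 73.2, 74.6 and 76.9 FPKM at F3, with 1 F1 library above the others. The 2 clusters of its number, 1 called higher and 1 lower, summed to 14.8 and 74.9 FPKM (log2 fold change 2.20). Sugar transporters had 15 of 42 higher and 20 lower (47.6%), with the hexose importer sugar transport protein 13 (Cluster-13221.1) rising from 7.5 ± 0.108 to 68.5 ± 0.955 FPKM. Amino acid transporters had 12 of 52 higher and 25 lower (48.1%), with amino acid permease 3 (Cluster-34164.0) rising from 12.2 ± 1.06 to 88.8 ± 5.67 FPKM. ABC transporters had 48 of 163 higher and 58 lower (35.6%), with G family member 12 (Cluster-52478.1), an exporter of cuticle lipids in Arabidopsis, falling from 43.3 ± 0.695 to 2.04 ± 0.0700 FPKM.

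Detoxification and redox lists were also mixed. UDP-glycosyltransferases, which attach sugars to small molecules, had 40 of 73 higher (54.8%) and 21 lower, among them 74G1 (Cluster-2857.5) at 0.647 ± 0.421 and 135 ± 14.1 FPKM and 91A1 (Cluster-34744.0) at 154 ± 2.5 and 10.8 ± 0.985 FPKM. Glutathione S-transferases had 19 of 45 higher and 19 lower. Antioxidant enzymes had 32 of 104 higher (30.8%) and 22 lower. Metallothioneins, small metal-binding proteins, had 6 of 8 clusters higher, all of 1 number, and 2 lower. Type 2 (Cluster-28126.0) had 3716, 3951 and 3481 FPKM at F1 and 184, 199 and 168 FPKM at F3, and the 6 type 3 clusters that share the number of Cluster-54034.5 summed to 15.7 and 1674 FPKM. The family's sum fell from 3914 ± 231 to 1867 ± 77.1 FPKM while its median log2 fold change was 5.31, since 6 of 8 clusters are of type 3.

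Some changes of single clusters were opposed by other clusters of the same number. The number before the point is shared by several clusters in 3629 of 14454 cases, and 1118 of these held calls in both directions. Photosystem II protein W is an example. Cluster-46195.3 had no count at F1 and 1524, 1525 and 1415 FPKM at F3, at least 7153-fold higher, while the 4 clusters of its number summed to 1069 and 1497 FPKM (log2 fold change 0.41). ABC transporter F family member 5 had no count at F1 under Cluster-40419.4 and 521 ± 5.94 FPKM at F3, and 381 ± 4.59 and 7.88 ± 0.500 FPKM under Cluster-40419.5. Their number summed to 385.4 and 535.4 FPKM (log2 fold change 0.33). Peroxiredoxin Q went from 0.583 ± 0.413 to 131 ± 17.8 FPKM under Cluster-45452.1 and from 134 ± 23.6 to 0.650 ± 0.613 FPKM under Cluster-45452.2, with a sum of 137.5 and 133.0 FPKM.

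Counts were also summed by number. Of 14454 numbers, 4839 (33.5%) were higher, 5306 (36.7%) lower and 70.2% called in all. Among the 1118 numbers with calls both ways, the sum was higher for 201, lower for 209 and not called for 708. A total of 120 clusters rose from no count to at least 10 FPKM, and the sum of their number was called higher for 73 of them. A total of 225 fell from at least 10 FPKM to no count, and the sum was called lower for 176. Some numbers join different genes, since 726 of the 3629 carry more than 1 Swiss-Prot name. Whether clusters of one number share sequence or reads was not tested. Gains of summed numbers included CBL-interacting protein kinase 11 (Cluster-35820), from 0.0733 ± 0.127 to 68.6 ± 5.36 FPKM, cucumber peeling cupredoxin (Cluster-39117), from 2.19 ± 0.908 to 131 ± 9.78 FPKM, and geraniol 8-hydroxylase (Cluster-46131), from 0.683 ± 0.357 to 52.0 ± 2.09 FPKM.

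The study listed quantitative PCR primers for 10 clusters, of which 9 are in the table. Between F1 and F3, 6 of these were called higher and 2 lower. The study's results name 9 other clusters, of flavonoid and anthocyanin synthesis, as those measured by quantitative PCR. None of those named is in the primer list, and the sources do not explain the difference. Cluster-26969.1, described above, is among those named. The primer pairs of 4 listed clusters are shown as examples, 3 from clusters that rose and 1 from a cluster that fell, chosen after their values were seen. Capitals mark the start codon letters at the front of a forward primer and the reverse complement of a stop codon at the front of a reverse primer.
GRP1A forward: ATGgcctccgcagatgttga
GRP1A reverse: CTAgtttctccagctgcc
ASPG1 forward: ATGgctgaaaatctttgtc
ASPG1 reverse: TTAacacttattcgacgaaaatccc
CIA2 forward: ATGtcttcttgtctaagtgg
CIA2 reverse: CTAtattttcttcaactttg
WAKL2 forward: gatcaaaatgaggaattccc
WAKL2 reverse: TCAtgctgtattaaatagc
Of the 10 forward primers 8 begin with ATG, and all 10 reverse primers begin with TCA, TTA or CTA, and whether each pair spans a whole coding sequence was not tested. Aspartic protease in guard cell 1 (ASPG1, Cluster-13773.0) had 338, 315 and 336 FPKM at F1 and 50.4, 49.3 and 51.9 FPKM at F3 (log2 fold change -2.83 ± 0.04, adjusted p = 1.6e-10). Chloroplast import apparatus 2 (CIA2, Cluster-12600.1), a regulator of chloroplast protein import genes, rose from 30.3 ± 3.16 to 120 ± 4.72 FPKM. Photosystem II repair protein PSB27-H1 (Cluster-14801.0) fell from 203 ± 8.21 to 84.8 ± 4.55 FPKM. BAG regulator 6 (Cluster-12723.1), a cochaperone, rose from 80.5 ± 7.47 to 209 ± 5.13 FPKM, while the 3 clusters of its number summed to 205.6 and 212.5 FPKM. Cluster-16293.2, which has no Swiss-Prot match, was not called, at 66.1 ± 1.42 and 57.9 ± 4.90 FPKM. The reference cluster of the primer list is not analysed here. Another cluster of its number, a match to glyceraldehyde-3-phosphate dehydrogenase GAPA1 (Cluster-46325.4), rose from 9.73 ± 1.68 to 29.8 ± 2.36 FPKM.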

How the data were processed

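The authors deposited 1 table with raw counts, FPKM (fragments per kilobase of cluster length, scaled to the depth of each library) and annotation columns for each transcript cluster. How the clusters were made is not stated. For the assembler, aligner and counter, names are not stated by the label fields or file header, and the labels name kits and genome builds that differ from the study's methods, so neither was relied on. The table also holds the authors' own comparisons (log2 fold changes, p-values and calls), which were not used. The deposited counts were tested with edgeR 4.0.16 (quasi-likelihood, TMM, no filter on low counts) in R 4.3.3, in 1 model that held all 9 libraries and had only the stage as a term. Benjamini-Hochberg adjustment ran over all 24385 clusters, and calls needed an adjusted p under 0.05 and a fold of 2 or more. The SE of a log2 fold change is its size divided by the square root of the F statistic, an approximation. Cluster levels are the deposited FPKM, and sums add FPKM over clusters. Alternatives used limma 3.58.1 on log2(FPKM + 1) or log2(FPKM + 0.1), DESeq2 1.42.0, other scalings, a filter, the replicate number as a block, each library left out, and sums by number. Tables and figures used Python 3.11.15, pandas 2.3.3, numpy 2.4.6 and matplotlib 3.10.9. The fits were tested on simulated data.

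Gene classes were 48 lists of Swiss-Prot name patterns, KEGG pathways of at least 20 clusters and transcription factor families of at least 10. The members and lists were chosen with earlier results of these data known, and some name patterns (peroxidases, cysteine proteases, cytokinin, lipid-transfer proteins, light signalling, histones, clock, sugar transporters) were corrected after their members were seen. Named genes were the 12 clusters in each direction with the largest difference in mean FPKM, the 8 numbers in each direction with the largest fold of summed counts and at least 50 FPKM, up to 3 called members of a class in each direction with the highest FPKM, up to 10 transcription factors in each direction, and the clusters with primers. The text names part of these. Classes overlap, and clusters of gene families may share reads.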

Additional observations from a re-analysis of the deposited data

How the results depend on the processing

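The calls of clusters and of summed numbers stayed within 1.5 times under the alternatives run. Clusters called higher and lower numbered 8570 and 8538 with DESeq2, 8932 and 7830 with library sizes implied by FPKM (which move the median log2 fold change by 0.12) and 5832 and 5750 with limma on log2(FPKM + 1). Leaving out each library in turn gave 7487 to 8059 higher and 8057 to 8681 lower. Deviations from the stage means correlated at 0.0001 to 0.034 between same-numbered F1 and F3 libraries, and at -0.034 to 0.0031 between differently numbered ones. Correlations this small cannot show whether libraries of equal number share a tree. The fit with the replicate block called 8173 higher and 8227 lower. Of 75 gene classes, 54 kept their share of calls within 1.5 times in every alternative. Where a class's larger share was under 1.5 times the smaller, only the share called either way was followed. A change of leading direction was not looked for in those classes.

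With limma on log2(FPKM + 1), which shrinks changes of low clusters, 23.9% of all clusters were called higher and 23.6% lower, so the spliceosome and splicing factors were then at the share over all clusters. The share called higher fell to 42.4% for pentatricopeptide repeat proteins, 30.0% for ethylene genes, 24.1% for splicing factors, 23.9% for the spliceosome, 26.6% for oxidative phosphorylation, 30.5% for mRNA surveillance, 15.6% for KEGG autophagy and 12.5% for plastid-encoded genes. The share called lower fell to 28.8% for amino acid transporters, 38.9% for cell division, 23.5% for carbon fixation, 28.6% for photosynthesis, 27.1% for porphyrin metabolism, 18.4% for GARP-G2-like and 22.7% for SBP factors, and the share called either way to 42.3% for ABC transporters, 37.9% for NLR proteins, 37.7% for photoreceptors and 26.8% for the ribosome. In this limma fit, carbon fixation, SBP and GARP-G2-like factors were at or below the share of all clusters called lower. KEGG autophagy and plastid-encoded genes were below the share of all clusters called higher. Without a fold threshold the ribosome had 70.3% called. Plastid-encoded genes had 50% higher among clusters of at least 1 FPKM, 12.5% after summing by number and 0.0% to 25.0% with 1 library left out.

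Summed by number, autophagy had 50% higher and metallothioneins 33.3%, and for metallothioneins more numbers were then lower than higher. The lead also changed in some classes with calls both ways. For example, cytochromes P450 had 20 numbers higher and 25 lower, and antioxidant enzymes 13 higher and 18 lower. The log2 fold changes of BAG regulator 6 (Cluster-12723.1, -0.055), Cluster-40419.5 (0.33) and Cluster-45452.1 (-0.36) changed sign under the same sums, and the cause was not tested. With 3 libraries a stage, a table of preselected clusters and no record of which tree gave which library, the counts above describe these libraries. Single clusters with few counts are bounded by 3 counts per library.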
